A study of Saccharomyces cerevisiae with 4 samples.

Results

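The regions described here are 265 places in the budding yeast genome where histone H3 phosphorylated at threonine 45 (H3T45p) was called as a peak under hydroxyurea and where total H3 was largely kept. They were picked from the 630 hydroxyurea peaks of the authors. A peak qualified when it lay 20 kb or more from both ends of its chromosome, had an H3 signal above 0 in untreated cells, and had a mean H3 signal in hydroxyurea above 0.7 times the untreated mean. Of the 630 peaks, 595 lay that far inside a chromosome, and 265 of these (44.5%) passed the H3 condition. The other 330 inner peaks had an H3 ratio of 0.7 or less.

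Chromatin immunoprecipitation with sequencing (ChIP-seq) was done in the laboratory strain BY4741 growing at mid-log phase in rich YPD medium. The groups were hydroxyurea (200 mM for 2 h) and untreated, each with an antibody to H3T45p and with an antibody to the C terminus of H3, which binds H3 whether or not it is phosphorylated. Each group held 1 library, so no difference between conditions has a replicate check and no test between conditions was possible. The hydroxyurea libraries are both numbered 1 in the sample titles and the untreated libraries both 2, and a batch under those numbers cannot be told apart from the treatment.

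Hydroxyurea blocks ribonucleotide reductase, the enzyme that makes deoxynucleotides, so that replication forks slow or stall and the S-phase checkpoint is switched on. Threonine 45 sits close to the DNA entry and exit points of the nucleosome. Cdc7, the kinase that together with Dbf4 fires replication origins, is the enzyme the series title names. In yeast the stretches poorest in nucleosomes are typically gene promoters, gene ends and origins. At such places a ratio of a modified histone to total H3 can be high because the modified form is abundant or because little H3 is there. An H3 signal that is largely kept limits how much of a change of that ratio a lower H3 can give.

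The libraries held 23588153 (H3T45p) and 28690293 (H3) reads in hydroxyurea, and 25105783 (H3T45p) and 27319637 (H3) reads in untreated cells. Values are the authors' signal per window of 150 bp, which is a read count divided by one factor per library, and a region's value is the mean over its windows. Over nuclear windows the hydroxyurea libraries had median signals of 283 (H3T45p) and 277 (H3), and the untreated libraries had 289 (H3T45p) and 280 (H3). The factor puts libraries on a common scale, so all changes are relative within the genome. No input DNA was analysed here, so the DNA that any antibody recovers at these places was not measured. No source used here names the genome build of the files. The regions are therefore given as chromosome, start and end as the files number them (first base 1), and were not assigned to genes.

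The 265 regions were poor in H3 in both conditions. Their median H3 signal was 52.1 under hydroxyurea (quartiles 36.2 and 77.9) against 59.6 untreated (quartiles 39.9 and 88.6), which was 18.8% and 21.3% of the genome medians. H3 was below the genome median in 261 regions in hydroxyurea and in 259 in untreated cells. The median H3T45p signal was 264 under hydroxyurea (quartiles 175 and 379) against 123 untreated (quartiles 86.8 and 169). In hydroxyurea the H3T45p signal of these H3-poor regions thus stood at 93.2% of the genome median of that library, and in untreated cells at 42.6%. The peak list is that of the hydroxyurea H3T45p library, so the high value there is a description of how the regions were chosen.

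Most regions lay in gaps in H3, and the median H3 profile was lowest in the regions themselves. The run of windows with an untreated H3 signal under the genome median had a median length of 900 bp around a region (quartiles 600 and 1350 bp), whereas the regions themselves had a median width of 300 bp. At 150 bp to the left and right of the regions the median H3 signal was 105 and 117 in hydroxyurea, and 113 and 131 in untreated cells. It was highest between 600 and 900 bp away, with 397 in hydroxyurea at 750 bp on the left and 392 in untreated cells at 900 bp on the right. The gap in H3 was of nearly the same shape in both conditions. The H3 condition limits how far H3 in the regions could be lower, so the likeness in the middle follows in part from the choice.

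The H3T45p signal in hydroxyurea was high in the middle of this gap. Its median signal was 264 in the regions and 167 and 189 in the windows beside them. The regions are the peaks of that library and the windows beside them were left out of the peaks, so a higher middle there follows from the choice of the regions and is given as a description. In untreated cells the same medians were 123 in the regions and 145 and 151 beside them, a dip. The H3T45p signal of the region exceeded both adjacent windows in 127 of 265 regions (47.9%) in hydroxyurea, where 27.1% of the 300 bp tiles of the genome that pass the same H3 condition did so. In untreated cells it did so in 34 regions (12.8%), against 26.9% of the tiles. H3 was below both adjacent windows in 166 regions (62.6%) in hydroxyurea, against 24.1% of the tiles, and in 146 (55.1%) in untreated cells, against 25% of the tiles. Among the 330 other inner peaks it was so in 163 (49.4%) in hydroxyurea and in 103 (31.2%) in untreated cells.

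**Figure D1:**
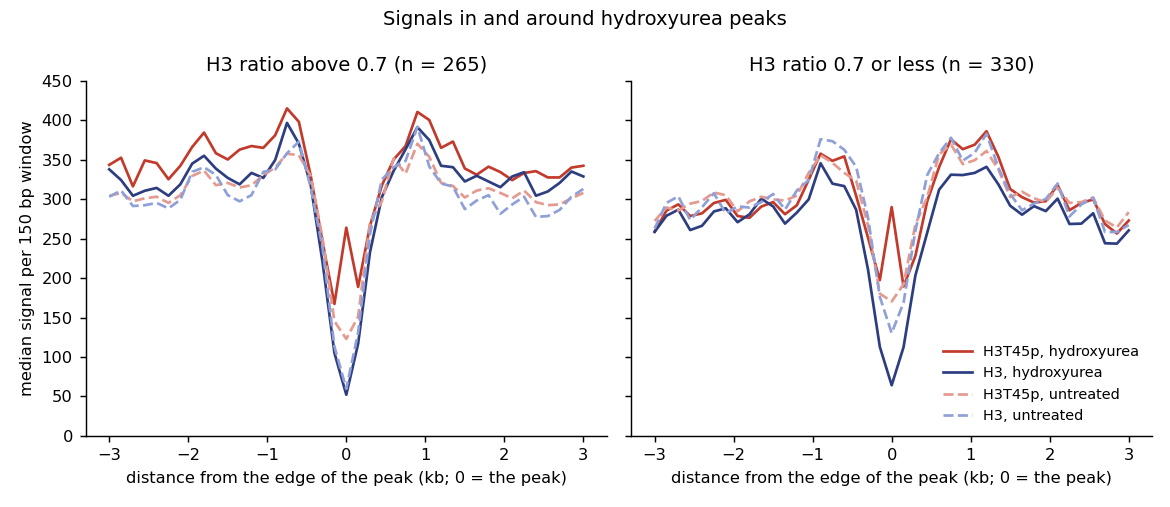
Median signal per 150 bp window (y) against distance from the edge of the peak in kb (x, 0 being the mean over the peak) for the 265 peaks with an H3 ratio above 0.7 (left) and the 330 with a lower ratio (right). Solid lines are hydroxyurea and dashed lines untreated. At the 265 peaks the H3 lines nearly coincide, which the H3 condition favours, while H3T45p reaches 264 under hydroxyurea against 123 untreated.

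Of the 265 regions, 262 had more H3T45p under hydroxyurea than untreated. Among the 300 bp tiles under the same H3 condition, 45.3% had an equal or lower H3T45p signal under hydroxyurea. The median ratio of the H3T45p signals, hydroxyurea over untreated, was 2.11 (quartiles 1.72 and 2.72, range 0.836 to 7.48). On the log2 scale with 28.3 (10% of the genome median) added to each signal, the median change was 0.92, and 208 regions (78.5%) were 1.5 times or more higher. Among the 34098 tiles of 300 bp that lie as far from the ends and pass the same H3 condition, 4.8% were that much higher and the median change was 0.04. When 50% of the genome median was added instead, 134 regions were that much higher, with no share of tiles given for that setting. A doubling or more was seen in 113 regions (42.6%), against 0.434% of the tiles. The peaks were called on the hydroxyurea library, which favours such a difference, so the count is no separate evidence of a change. The 95% counting interval of the fold lay wholly above 1 in 249 regions (94.0%) and wholly above 1.5 in 179 (67.5%). Among the tiles under the same H3 condition these shares were 36.9% and 2.67%, and among the 330 other inner peaks they were 83.6% (276) and 44.8% (148). These intervals cover counting error in these libraries only, since reads are not independent molecules.

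The 3 regions in which H3T45p was lower in hydroxyurea were each 1 window wide. At chr7:731101-731250 the H3T45p signal was 138 under hydroxyurea against 165 untreated. At chr12:818551-818700 it was 96.7 under hydroxyurea against 98.5 untreated, and at chr15:980701-980850 it was 98.99 under hydroxyurea against 104 untreated. The counting intervals of all 3 folds included 1, so none was distinguishable from no change at this depth.

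H3-poor tiles outside peaks did not have more H3T45p under hydroxyurea. Among the tiles under the same H3 condition, 1589 had an untreated H3 signal between the quartiles of the 265 regions (39.9 to 88.6). In the 1415 of these that touch no hydroxyurea peak, the median H3T45p signal was 68.3 under hydroxyurea against 85.3 untreated, a median log2 change of -0.24. Of them, 0.848% were 1.5 times or more higher. Tiles outside peaks are those that the peak list of the hydroxyurea H3T45p library left out, so they are no neutral set. With the tiles in peaks included, the median change was -0.19 and 7.17% were that much higher. The H3-poor tiles outside peaks and the 265 regions thus lay on opposite sides of 0 in the median, with the choice of both sets bearing on it.

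**Figure D2:**
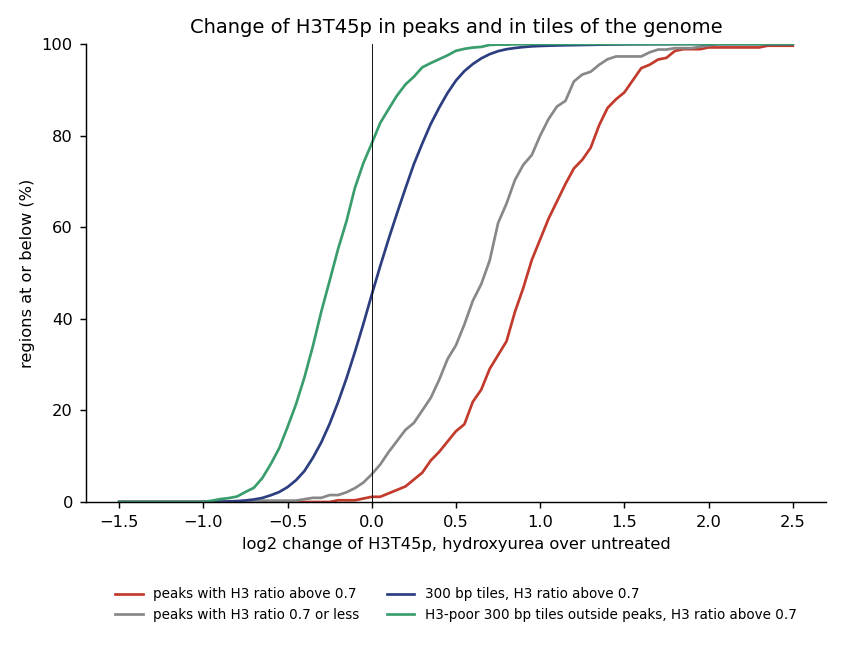
Share of regions at or below a given log2 change of H3T45p, hydroxyurea over untreated (x), for the 265 peaks with an H3 ratio above 0.7, the 330 other inner peaks, all 300 bp tiles under the same H3 condition, and those tiles that are H3-poor and outside peaks. The medians are 0.92, 0.67, 0.04 and -0.24.

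The 5 regions with the highest change of H3T45p among those with 50 or more untreated H3 reads lay on 5 chromosomes. At chr7:883951-884400 the H3T45p signal was 635 under hydroxyurea against 84.8 untreated, a 7.48-fold difference (95% counting interval 6.56 to 8.56). H3 there was 36.8 under hydroxyurea against 50.9 untreated, a ratio of 0.724 (0.567 to 0.924), with the limit of 0.7 inside the interval. Relative to the windows 5 to 15 kb away the H3 ratio was 0.573, the lowest of the 265 regions. Within this region 1 window carried most of the signal: its middle window had an H3T45p signal of 1053 under hydroxyurea against 121 untreated.

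At chr3:137101-137700 the H3T45p signal was 759 under hydroxyurea against 128 untreated, or 5.92-fold (5.39 to 6.51), and the H3 signal was 76.6 under hydroxyurea against 94.0 untreated. Its 2 middle windows stood out, with H3T45p signals of 1229 and 1239 under hydroxyurea against 137 and 142 untreated. At chr12:370201-371100 the H3T45p signal was 469 under hydroxyurea against 99.8 untreated, or 4.70-fold (4.30 to 5.15). In these 3 regions the signal was above the genome median in 1 of the 4 libraries, that of H3T45p in hydroxyurea.

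The region at chr2:251251-251400 differed from these in holding more H3. Its H3 signal was 274 under hydroxyurea against 255 untreated, close to the genome median, and its H3T45p signal was 802 under hydroxyurea against 208 untreated. The fold of H3T45p was 3.86 (3.31 to 4.52). At chr16:425251-425700 the H3T45p signal was 485 under hydroxyurea against 122 untreated, and H3 was 103 under hydroxyurea against 90.3 untreated. Both regions had more H3T45p under hydroxyurea at an H3 level that was not lower.

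**Figure D3:**
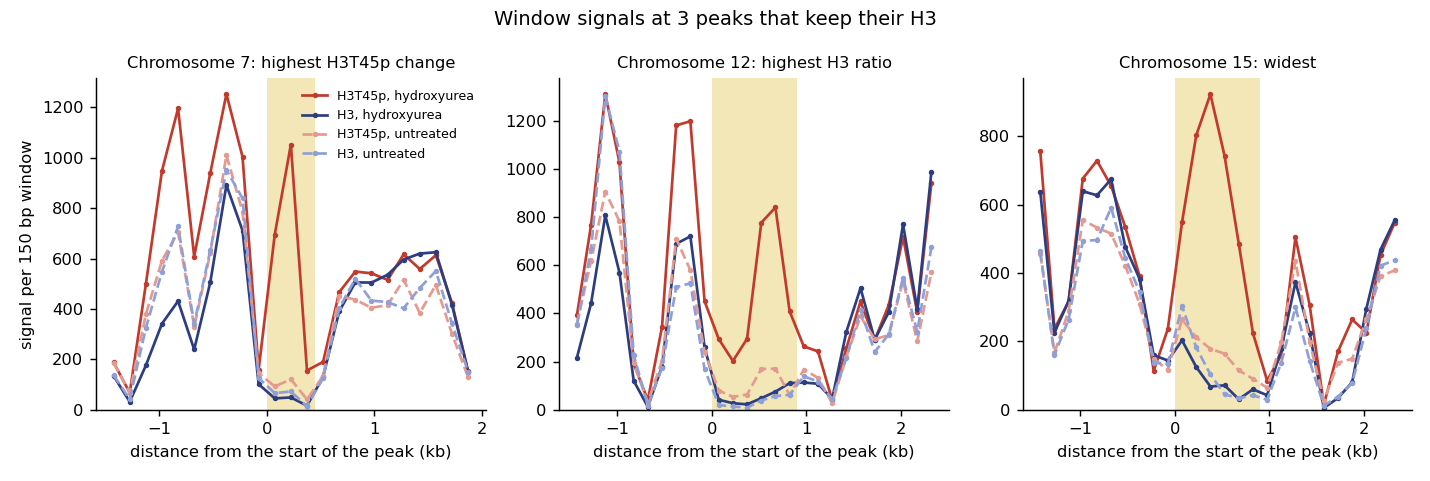
Signal per 150 bp window (y) against distance from the start of the peak in kb (x) at 3 regions: the highest H3T45p change (chromosome 7), the highest H3 ratio (chromosome 12) and the widest by the H3T45p signal (chromosome 15). The shaded span is the peak. Inside it the solid red line of H3T45p in hydroxyurea lies above the other lines and reaches 1053, 840 and 923. Outside the peak that line is higher still on chromosomes 7 and 12, up to 1253 and 1310, where H3 is high too. On chromosome 15 the first window of the peak has an untreated H3 signal of 303, above the genome median of 280.

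At the other end, 5 regions showed little change. At chr7:739051-739200 the H3T45p signal was 221 under hydroxyurea against 211 untreated, a fold of 1.05 (0.859 to 1.28). At chr13:420451-420600 it was 150.2 under hydroxyurea against 141 untreated, a fold of 1.06 (0.833 to 1.35). Neither fold differed from 1 beyond counting error. The regions at chr16:435901-436050 and chr7:205501-205650 had folds of 1.17 (0.934 to 1.48) and 1.19 (0.967 to 1.47), also with 1 inside the interval. At chr2:477001-477300 the signal was 260.0 under hydroxyurea against 223 untreated, a fold of 1.16 (1.02 to 1.33). All 5 already had a ratio of H3T45p over H3 above 2 in untreated cells, from 2.12 to 3.07.

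The ratio of H3T45p to H3 was high in hydroxyurea in every region, with a median of 4.54 (quartiles 3.62 and 6.00, range 2.11 to 17.2). The regions come from the peak list of the hydroxyurea H3T45p library, so this is a description. No source used here says whether the call used H3. In untreated cells, which the rule used only through H3, the median ratio was 1.92 (quartiles 1.39 and 2.80), and 254 of the 265 regions (95.8%) were above 1, against 90.1% of the H3-poor tiles under the same H3 condition, which is close to the same share. A ratio of 2 or more was already present untreated in 125 regions (47.2%), against 4.59% of the H3-poor tiles. Those tiles span only the middle of the regions' untreated H3 (39.9 to 88.6), so these shares are not like for like. The median untreated ratio was 2.84 in the 88 regions with the least untreated H3 and 1.35 in the 87 with the most. Untreated H3 also enters both this ratio and the H3 condition. The change of the log2 ratio had a median of 1.04, and 218 regions (82.3%) were 1.5 times or more higher, against 4.16% of the tiles under the same H3 condition. That change is part of what chose the regions.

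The 5 highest ratios in hydroxyurea, among regions with 50 or more untreated H3 reads, were 17.2 at chr7:883951-884400, 14.9 at chr9:316351-316650, 11.7 at chr10:702901-703200, 10.8 at chr12:241801-242100 and 10.7 at chr10:651151-651450. Untreated, the ratios of these regions were 1.67, 5.89, 5.78, 4.68 and 5.50, listed in that order. The last 4 were therefore high untreated too, and each was covered over its full 300 bp by an untreated peak. At chr9:316351-316650 the H3T45p signal was 480.2 under hydroxyurea against 241 untreated, and H3 was 32.2 under hydroxyurea against 40.9 untreated. The chromosome 7 region overlapped no untreated peak.

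The authors' untreated peaks overlapped 39 of the 265 regions (14.7%, exact binomial interval 10.7 to 19.6%) and 20 of the 330 other inner peaks (6.06%, 3.74 to 9.21%). Seen from the untreated list, 39 of its 59 inner peaks (66.1%, 52.6 to 77.9%) lay in the 265 regions, which are 44.5% of the inner hydroxyurea peaks. An H3 ratio above 0.7 favours low untreated H3. No source used here says whether the untreated call used H3 as well, and a link between the lists through untreated H3 was not tested. The 39 regions had a median H3T45p signal of 338 under hydroxyurea against 178 untreated, and the other 226 had 235 under hydroxyurea against 111 untreated. The median change of H3T45p was 0.91 in the 39 and 0.93 in the 226.

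Of the regions with an untreated peak, the 5 widest are given, ties in width being settled by the H3T45p signal in hydroxyurea. At chr15:109201-110100, the region with the most H3T45p signal of the 900 bp regions, H3T45p was 621 under hydroxyurea against 171 untreated, and H3 was 93.0 under hydroxyurea against 118 untreated. H3T45p there was highest in the third window, at 923 under hydroxyurea against 178 untreated. At chr7:483151-483900 H3T45p was 302 under hydroxyurea against 83.7 untreated. At chr13:551251-551850 it was 304 under hydroxyurea against 157 untreated. Their folds were 3.64, 3.62 and 1.94 in this order. The untreated peak covered 150 of 900 bp, 150 of 750 bp and 300 of 600 bp of these regions, so at least 50% of each was not called untreated. The others of the 5 were chr12:370201-371100 and chr5:85051-85500, where untreated peaks covered 450 of 900 bp and 300 of 450 bp. More than 50% of the chromosome 5 region was thus called untreated.

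How far H3 was kept varied along a continuum. The median H3 ratio of the 265 regions was 0.856 (quartiles 0.779 and 1.00), and H3 was higher in hydroxyurea in 68 regions (25.7%), against 51.8% of all tiles under the same H3 condition and 60.9% of the H3-poor ones. Depth limits how well single regions can be placed: the median region held 93 H3 reads under hydroxyurea against 96 untreated. The 95% counting interval of the H3 ratio included 0.7 in 170 of the 265 regions and in 153 of the 330 others. It lay wholly above 0.7 in 95 regions. It included 1 in 204 regions, lay wholly below 1 in 54 (20.4%) and wholly above 1 in 7. In the 95 regions H3T45p had a median log2 change of 1.17, and 86 of them were 1.5 times or more higher. No share of tiles with such an interval is given. The 95 were also wider and richer in H3 than the 170. Their median width was 300 bp against 150 bp, and their median H3 signal in hydroxyurea was 74.0 against 44.6. Wider regions had larger changes, as given below, so the 95 are no like set.

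The limit of 0.7 lay within counting error of the regions next to it. Just inside it, the H3 ratios were 0.7005 at chr4:117301-117600, 0.701 at chr15:594301-594450 and 0.701 at chr3:227851-228000. Just outside it, they were 0.699 at chr15:742351-742500, chr4:636151-636300 and chr4:491101-491400. The folds of H3T45p were 1.42, 1.12 and 1.69 for those inside and 3.46, 1.81 and 2.09 for those outside. The counting intervals of all 6 H3 ratios included 0.7, and the 3 folds of H3T45p outside the limit were the higher ones.

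In the 5 regions with the highest H3 ratio, with 50 or more untreated H3 reads, H3 was higher in hydroxyurea beyond counting error. The highest was 1.63 (1.37 to 1.94) at chr12:370201-371100, with an H3 signal of 54.2 under hydroxyurea against 33.3 untreated. H3 was also higher in each of its 6 windows, from 22.7 under hydroxyurea against 8.86 untreated in the third window up to 111 under hydroxyurea against 62.0 untreated in the last. At chr5:85051-85500 H3 was 124 under hydroxyurea against 87.0 untreated, a ratio of 1.42 (1.21 to 1.66), while H3T45p was 766 under hydroxyurea against 267 untreated. The fold of H3T45p exceeded that of H3 in both regions, at 4.70 and 2.87.

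The other 3 of these were narrow. At chr5:174751-174900 H3 was 130 under hydroxyurea against 88.6 untreated, and H3T45p was 421 under hydroxyurea against 104 untreated. At chr13:253351-253500 H3 was 86.1 under hydroxyurea against 60.1 untreated, and H3T45p was 283 under hydroxyurea against 76.05 untreated. At chr3:78301-78600 H3 was 104 under hydroxyurea against 73.4 untreated, and H3T45p was 433 under hydroxyurea against 124 untreated. In all 5, both antibodies recovered more in hydroxyurea, and H3T45p by the larger factor. The windows 5 to 15 kb away had more of both too, with log2 changes of 0.19 to 0.43 for H3 and 0.45 to 0.60 for H3T45p. Relative to those windows the H3 ratios of the 5 were 1.16 to 1.26. The 5 were picked for the highest H3 ratios, so their intervals describe a selected set.

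**Figure D4:**
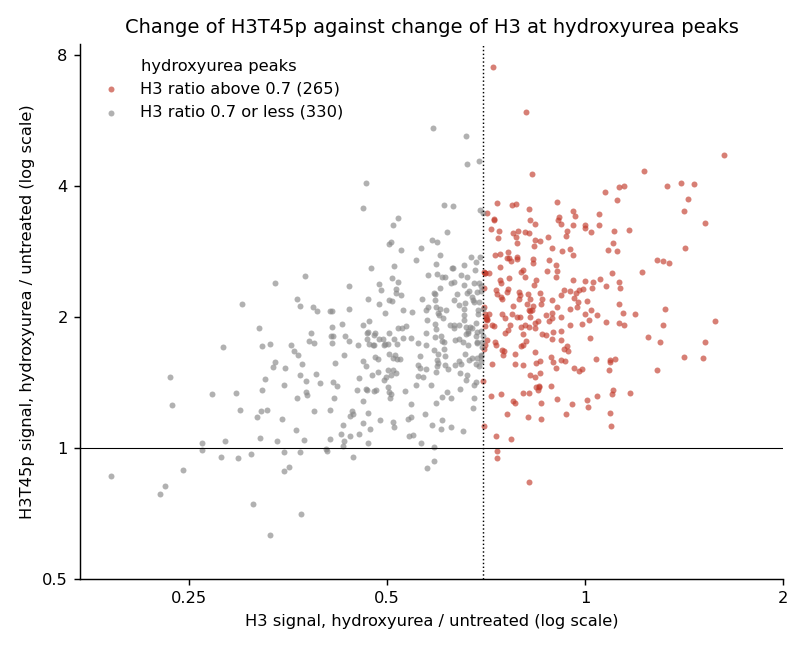
Ratio of the H3T45p signal, hydroxyurea over untreated (y, log scale), against the same ratio of the H3 signal (x, log scale), with 1 point for each of the 595 inner hydroxyurea peaks. The dotted line is the H3 ratio of 0.7; to its right the 265 points (red) lie between 0.836 and 7.48 on the H3T45p axis, with 3 of them under 1.

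Within the 265 regions the change of H3T45p was similar across classes of the H3 ratio. The counting interval of that ratio included 1 in 204 regions and 0.7 in 170, so counting error mixes these classes. The ratio is also the value that the rule cut at 0.7. The median log2 change was 0.92 in the 126 regions with an H3 ratio up to 0.85, 0.89 in the 71 from 0.85 to 1, and 0.96 in the 68 above 1. Spearman's correlation of the change with the H3 ratio was 0.08 over the 265 regions, which share their libraries. Over the 330 other inner peaks it was 0.42, with a median change of 0.67 and 192 (58.2%) 1.5 times or more higher. In these 330 the median H3T45p signal was 290.1 under hydroxyurea against 170 untreated, and the median H3 signal was 64.1 under hydroxyurea against 130 untreated. The H3 ratio split the 2 kinds of peak, so their H3 levels are a description of the rule. These differences between kinds of peak were not tested, since each library is a single sample.

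Wider regions showed larger changes of H3T45p. The 128 regions of 1 window had a median log2 change of 0.70, the 85 of 300 bp had 1.00 and the 52 of 450 bp or more had 1.32. H3T45p was 1.5 times or more higher in 78, 78 and 52 of them, that is in 60.9%, 91.8% and 100% of each class. Width comes from the same call as the regions, so it is no independent measure. In all 137 regions of 2 or more windows, each window had more H3T45p in hydroxyurea. Those windows lie in peaks called on the hydroxyurea H3T45p library, which favours such a count, and no share of tiles is given for it. Each window kept H3 above 0.7 in 89 of the 137, so in the other 48 the mean hides at least 1 window that did not.

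The widest region by the H3T45p signal was that at chr15:109201-110100 described above, followed by chr12:370201-371100 and chr16:214351-215250, all of 900 bp. At the chromosome 16 region H3T45p was 202 under hydroxyurea against 91.98 untreated, and H3 was 35.0 under hydroxyurea against 44.1 untreated. The next were 750 bp wide. At chr9:248701-249450 H3T45p was 474 under hydroxyurea against 204 untreated, and at chr13:306151-306900 it was 407 under hydroxyurea against 138 untreated. The chromosome 9 region was near the limit, with an H3 ratio of 0.703 (0.632 to 0.783).

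The level of H3 graded both signals. In the 88 regions with the least untreated H3 the median H3T45p signal was 157 under hydroxyurea against 84.2 untreated, and in the 87 with the most it was 407 under hydroxyurea against 188 untreated. Over the 265 regions H3T45p followed H3 with a Spearman correlation of 0.78 under hydroxyurea against 0.71 untreated, and H3T45p in hydroxyurea followed H3T45p untreated with 0.75. Within these gaps, regions with more H3 thus tended to have more H3T45p. The share with H3T45p 1.5 times or more higher was 67.0% in the class with the least H3, 81.1% in the middle and 87.4% in the class with the most. This count rests on log2 changes with a fixed amount added to each signal. Such an amount shrinks a change most where the signal is low, as in the class with the least H3. Its part in the rise of these shares was not tested, and no share of tiles by H3 level is given.

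The surroundings of the regions also differed between conditions. In the windows 5 to 15 kb away on both sides, the log2 change of H3 had a median of 0.06 (quartiles -0.10 and 0.21) around the 265 regions and of -0.09 (quartiles -0.18 and 0.03) around the 330 others. H3 in these surroundings was higher in hydroxyurea for 161 of 265 regions (60.8%) and for 96 of 330 others (29.1%). The log2 change of H3T45p in the same windows had a median of 0.29 around the 265 regions and of 0.08 around the others. A larger share of the 265 regions than of the others thus lay in stretches with more H3 under hydroxyurea, a difference that was not tested.

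The H3 ratio of the regions went loosely with the H3 change of their surroundings, with a Spearman correlation of 0.28. The median surrounding change was -0.02 for ratios up to 0.85, 0.10 for ratios from 0.85 to 1, and 0.18 for ratios above 1. Close to the regions the change of H3 was lower: at 150 to 450 bp its median was -0.11 around the 265 regions and -0.38 around the 330 others. The part of the surroundings in the choice of the regions was not tested. Relative to the windows 5 to 15 kb away, the H3 ratio had a median of 0.858 in the 265 regions and stayed above 0.7 in 234 of them, and in 56 it was above 1. The median change of H3T45p was 0.92 in the regions, or 1.07 with nothing added to the signals. In their surroundings it was 0.29 with nothing added. A larger change in the regions follows in part from the peak call on the hydroxyurea H3T45p library. In the 104 regions whose surrounding H3 was not higher, the median change was 0.86 and 78 of the 104 were 1.5 times or more higher.

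**Figure D5:**
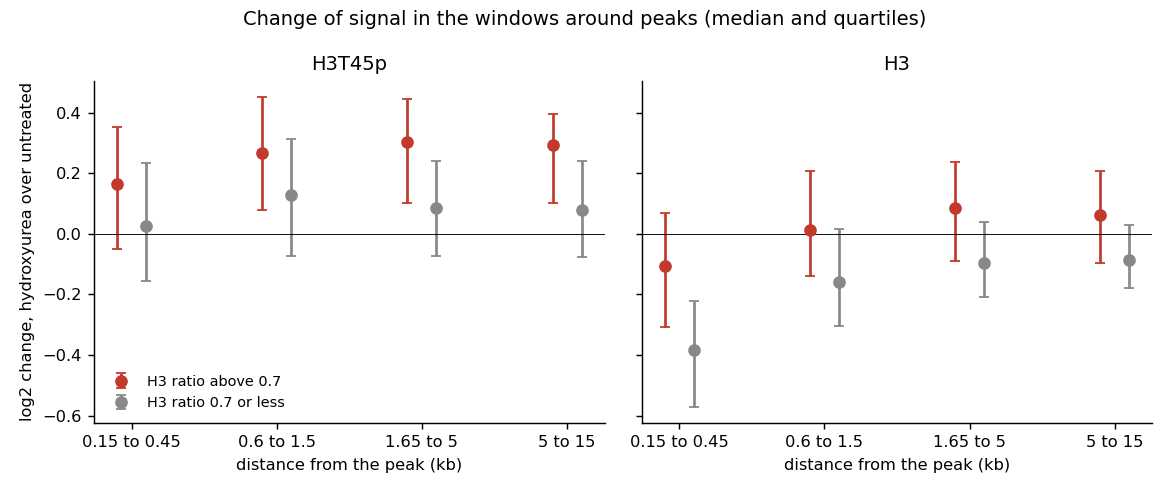
Log2 change of H3T45p (left) and H3 (right), hydroxyurea over untreated, in windows at 4 distances from the peak in kb, for the 265 peaks with an H3 ratio above 0.7 and the 330 with a lower ratio. Points are medians and bars are quartiles over peaks, with nothing added to the signals. At 5 to 15 kb the H3 medians are 0.06 and -0.09.

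The regions were spread over all 16 chromosomes, with 4 on chromosome 1 and up to 30 on chromosome 7. Their number per 100 kb of inner chromosome ranged from 1.25 on chromosome 12 to 3.91 on chromosome 6. As a share of the inner hydroxyurea peaks they made up 81.8% on chromosome 6 (9 of 11, exact binomial interval 48.2 to 97.7%), 65.0% on chromosome 9 (13 of 20, 40.8 to 84.6%) and 63.6% on chromosome 3 (7 of 11, 30.8 to 89.1%). They made up 26.5% on chromosome 12 (13 of 49, 14.9 to 41.1%). The median H3 change over 300 bp tiles was 0.06 on chromosome 6, 0.05 on chromosome 9, 0.07 on chromosome 3 and -0.07 on chromosome 12. This order did not hold throughout: chromosome 10, with a tile H3 change of 0.06, had a share of 41.9% (13 of 31), and chromosome 8, with -0.05, had 54.2% (13 of 24). The median change of H3T45p in the regions ranged from 0.71 on chromosome 1 to 1.17 on chromosome 5. Over all 300 bp tiles it ranged from -0.06 on chromosome 4 to 0.18 on chromosome 3. Peaks called on the hydroxyurea H3T45p library favour a value above 0 on every chromosome, so this is a description.

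Most regions stood alone. The nearest other hydroxyurea peak was a median of 5.1 kb away, and 33 regions (12.5%) had one within 1 kb, which in 12 cases was another of the 265. The region at chr7:883951-884400 had a peak 600 bp away. The regions lay a median of 224 kb from the nearer chromosome end, with a range of 23.4 to 722 kb.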

How the data were processed

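ChIP-seq of H3T45p and of H3 was analysed in 4 libraries, 1 for each antibody and condition. The deposited files hold a signal per 150 bp window. Dividing a library's values by their minimum above 0 gave whole numbers for 100% of windows (tolerance 0.001), which were taken as reads. The submitters' processing notes name BWA 0.5.9-r16 and DESeq but give neither a role. The peak lists give positions without a score, and neither the rule of the call nor the genome build was given in the sources used here. The deposited tracks of differences were not used.

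Region values are means over windows. Log2 changes of regions and tiles have 28.3 added to each signal, and 1.5 times or more was counted as higher. Log2 changes of the surroundings have nothing added. The background was 38087 tiles of 2 consecutive windows (300 bp) 20 kb or more from both ends, 34098 of them under the H3 condition. Intervals are exact binomial (Clopper-Pearson) at 95% on recovered reads or on counts of regions. With 1 library per group neither a count model nor another test could be run on the recovered reads. The functions were tested on simulated data. Python 3.11.15, numpy 2.4.6, pandas 2.3.3 and scipy 1.17.1 were used.

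The regions and their limits were chosen with earlier results of these data known. The named regions follow a rule: the 5 highest and 5 lowest changes of H3T45p, the 5 highest ratios in hydroxyurea, the 5 widest, the 5 highest H3 ratios, the 3 on each side of the limit, and up to 5 of 3 or more windows with an untreated peak, all but those at the limit with 50 or more untreated H3 reads. The 3 regions with lower H3T45p, the classes and the distances of the surroundings were chosen after their values were seen. The overlap with the 500 bp upstream of genes and the gene lists were planned and not run, since the build is not named.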

Additional observations from a re-analysis of the deposited data

How the results depend on the processing

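The peaks were called on the hydroxyurea H3T45p library, which favours medians above 0 under every setting. Apart from the 2-fold count, no share of tiles is given for the alternatives. The median change of H3T45p (0.92) and of the ratio of H3T45p over H3 (1.04) stayed above 0 under each alternative run. They were 0.80 and 0.94 with libraries scaled to their nuclear reads, 0.99 and 1.17 with 50 or more untreated H3 reads, 1.07 and 1.28 without a pseudocount, and 0.59 and 0.65 when 50% of the genome median was added, which left 134 of the 208 regions counted as 1.5 times higher. The change of the ratio was 0.96 with an H3 limit of 0.8 and 0.99 when centred on all tiles. With 2-fold in place of 1.5-fold, 113 regions were counted, against 0.434% of the tiles. Requiring the counting interval of the H3 ratio to lie wholly above 0.7, an alternative chosen after the data had been seen, left 95 regions with medians of 1.17 and 1.14, of which 86 were 1.5 times higher and 16 overlapped an untreated peak. The number of regions was 181 with a limit of 0.8, 371 with 0.6 and 300 with libraries scaled to their nuclear reads. The count overlapped by an untreated peak was 31 when 50% of the region had to be covered. The overlap with the 500 bp upstream of genes was not run. No paired analysis was possible because the hydroxyurea and untreated libraries share no replicate number.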

Other observations

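Judging H3 against the surroundings of each peak, with the ratio divided by that of the windows 5 to 15 kb away, changed part of the peaks that counted as keeping H3. This alternative was chosen after the data had been seen. It picked 280 peaks, of which 234 were among the 265 and 46 came from the other 330. Their median log2 change of H3T45p was 0.89, against 0.92 for the 265, and 211 were 1.5 times or more higher. Untreated peaks overlapped 41 of them.

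The H3-richest of the 265 regions was 1 window at chr7:481051-481200, chosen after its values were seen. Its H3 signal was 665 under hydroxyurea against 617 untreated, and its H3T45p signal was 1403 under hydroxyurea against 722 untreated. It stands apart from the H3-poor majority, in which the upper quartile of H3 was 77.9 under hydroxyurea against 88.6 untreated.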
